A study of Mus musculus with 12 samples.

Results

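Dgka, Dgkz, Rasa1, Rasa2, Rasal3 and Spry1 were followed as 6 named brakes on diacylglycerol and Ras signalling, chosen by symbol from the 10073 genes of the deposited table. All 6 were listed and all 6 passed the filter of a mean of at least 0.5 RPKM (read counts scaled to gene length in kilobases and to depth in M, or mega, reads) that 10021 genes passed. The libraries came from naive CD4 T cells of untreated mice, sorted from spleen and lymph nodes as CD4+, negative for Foxp3-RFP and low in CD44. Every mouse carried the transgene Tg(Nr4a1-EGFP)GY139Gsat, in which regulatory sequence of Nr4a1 (Nur77) drives GFP, and the targeted allele Foxp3tm1Flv, which adds a red reporter to Foxp3, on the C57/BL6 background. Population A was sorted as Nur77-GFP low and Ly6C+, population B as GFP intermediate and Ly6C+, population C as GFP intermediate and Ly6C negative, and population D as GFP high and Ly6C negative. Each was taken from the same 3 mice, so there are 12 libraries, and A1 stands for population A of mouse 1. The age of the mice was not given. GFP here reports recent T cell receptor (TCR) signal through an Nr4a1 control region only, and there was no group without the transgene. The study asked how basal TCR signal, in cells given no stimulus, goes with gene expression.

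When the TCR is engaged, phospholipase C gamma makes diacylglycerol, which recruits the exchange factor RasGRP1 to load Ras with GTP and also activates protein kinases C. Diacylglycerol kinases end that signal by turning diacylglycerol into phosphatidic acid, and in T cells the alpha and zeta enzymes (Dgka and Dgkz) are the best known for it. RasGAPs (Rasa1, Rasa2, Rasal3) act one step later, speeding the hydrolysis of GTP on Ras, and Sprouty proteins such as Spry1 are feedback inhibitors of the path from receptors to Ras and ERK. The table measures transcripts, not protein or enzyme activity.

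Some libraries did not follow their sort label, so a population below means the libraries that carry its label. In A1, Nr4a1, the gene behind the GFP reporter, was at 57.7 RPKM, while A2 and A3 had 26.1 and 22.9. In B1 it was at 35.97, while B2 and B3 had 73.3 and 64.6. It was 23.4 to 28.3 in the libraries labelled C and 58.7 to 67.8 in those labelled D. Ly6c1, which encodes a Ly6C protein, was higher in C than in B in 3 of 3 mice (64.3 ± 4.36 against 43.9 ± 6.53 RPKM, mean ± SD, n = 3 each), the opposite of the labelled gates, so that C had the level of A (64.6 ± 7.40) and B that of D (43.7 ± 5.10). Library C3 stood apart by plasma cell transcripts (summed RPKM of the 3 measured genes 837, against 18.3 to 24.4 in the other libraries), by the 2 measured B cell genes (247 against 6.69 to 28.2) and by the 2 measured dividing cell genes (24.3 against at most 7.18). The 2 measured red blood cell genes summed to 8.13 to 22.4 RPKM in A1, B1, C2 and D2 and to 133 to 176 in the others. The defining CD4 T cell transcripts were present everywhere (6 of 7 listed genes measured, summed RPKM 1608 to 1777), and the depth recovered from the values was 6.31 to 9.07 M reads per library. Results are given with all 12 libraries, with only the 6 libraries compared, and without A1 and B1. Because A1 and B1 were left out for their Nr4a1, that last fit favours genes that move with Nr4a1, and its p-values are to be read as a description.

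Bases before the transcription start of the 3 members whose transcripts differed most between D and C, Spry1, Rasa1 and Dgkz, are shown first. They are from RefSeq on GRCm38.p6, in the sense of the gene. Those of Spry1 and Rasa1 reach the base next to the start. Those of Dgkz stop 95 bases before the outer start and 80 before the inner one, where annotated exon of the gene begins. Capitals mark matches to the motifs searched on both strands. All 6 members matched the promoter table, with 11 start sites among them.
Spry1, chr3:37639797-37639946, plus strand: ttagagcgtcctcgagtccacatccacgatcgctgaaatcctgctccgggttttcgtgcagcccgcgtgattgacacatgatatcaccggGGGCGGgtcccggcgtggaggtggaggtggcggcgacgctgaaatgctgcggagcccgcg
Rasa1, chr13:85289487-85289636, minus strand: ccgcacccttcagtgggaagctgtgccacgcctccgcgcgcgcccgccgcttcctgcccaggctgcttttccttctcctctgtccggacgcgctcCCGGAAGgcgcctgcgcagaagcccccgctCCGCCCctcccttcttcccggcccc
Dgkz, outer start, chr2:91963658-91963807, minus strand: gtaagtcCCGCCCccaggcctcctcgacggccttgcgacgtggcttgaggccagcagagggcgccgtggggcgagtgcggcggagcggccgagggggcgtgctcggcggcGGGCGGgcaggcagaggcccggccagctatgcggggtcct
Dgkz, inner start, chr2:91950428-91950577, minus strand: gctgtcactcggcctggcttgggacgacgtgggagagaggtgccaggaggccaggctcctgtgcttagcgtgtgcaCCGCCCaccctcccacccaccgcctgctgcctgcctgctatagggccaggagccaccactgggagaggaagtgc
The capitals in Spry1 are a GC box (GGGCGG) that begins 60 bases before the start. Rasa1 has a GC box in the opposite sense 25 bases before its start and an Ets motif (CCGGAAG) 55 bases before it. The Dgkz stretches hold GC boxes 237 and 134 bases before the outer start and 153 bases before the inner one. Another GC box, 8 bases before the outer start of Dgkz, lies outside the stretch shown. GC boxes were also found before the start of Rasa2, both starts of Rasal3 and some starts of Dgka, so they do not set the members shown apart. Of 32851 mouse windows of 250 bases before a RefSeq start, 32.7% hold a GC box and 6.91% the Ets motif. The motif of Egr factors (GCGNGGGCG, in 4.70% of windows), the AP-1 motif (TGANTCA, in 6.75%) and the cyclic AMP element (TGACGTCA, in 1.55%) were not found in the 250 bases before any start of the 6 members. The NFAT core (TGGAAA, in 18.6%) was found before 3 of the 4 starts of Dgka. These are letter matches in a short window and no binding was measured.

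Diacylglycerol kinases came first in abundance. Dgka (Entrez 13139), the alpha enzyme, which calcium activates, was among the most abundant transcripts of these cells, ranking 46 of 10073 by its mean of 732 RPKM, with a coefficient of variation of 4.38% over the 12 libraries. It read 675, 711 and 740 RPKM in A1, A2 and A3, 772, 737 and 782 in B1, B2 and B3, 740, 763 and 710 in C1, C2 and C3, and 722, 692 and 736 in D1, D2 and D3. The order of the means was A (709 ± 33.0 RPKM, SD, n = 3), D (716 ± 22.6), C (738 ± 26.9) and B (764 ± 23.6), and each neighbouring pair overlapped. Dgka made up 74.6% of the summed RPKM of the 6 measured diacylglycerol kinases (71.5% to 77.4% per library). Its D minus C difference was -0.04 ± 0.05 on the log2(RPKM + 0.5) scale (± SE), with an adjusted p of 0.718 by limma.

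Dgkz (Entrez 104418), the zeta enzyme, was less abundant and varied more, with a mean of 124 RPKM (rank 323) and a coefficient of variation of 21.5%. Its values were 135, 93.1 and 93.5 RPKM in A1, A2 and A3, 110, 157 and 152 in B1, B2 and B3, 98.5, 107 and 97.4 in C1, C2 and C3, and 140, 153 and 157 in D1, D2 and D3. All 3 D libraries lay above all 3 C libraries and above all 3 A libraries, while A1 was high and B1 low for their labels. In order the means were C (101 ± 5.28 RPKM), A (107 ± 23.8), B (140 ± 25.9) and D (150 ± 8.94), with overlap between C and A, between A and B, and between B and D. At this level depth was not limiting, since each library held at least 3444 reads of Dgkz. Its share of the family's summed RPKM ran from 9.76% to 15.9%, and Dgkd, the delta enzyme, held 10.4% on average.

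**Figure D1:**
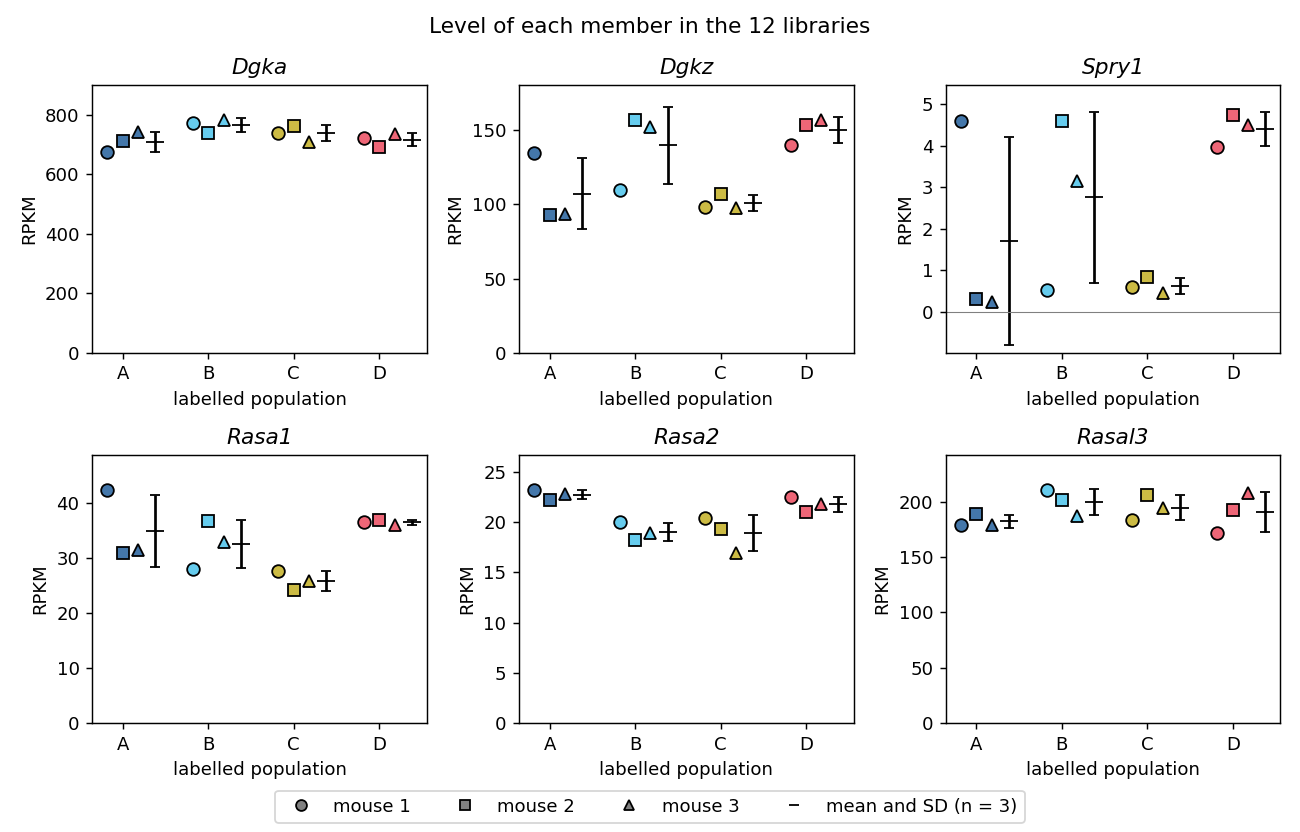
RPKM of the 6 members in each of the 12 libraries, 1 panel a gene on its own linear axis, by labelled population; each point is a library and the bar is the mean with its SD over 3 mice. Dgka and Rasal3 lie at similar levels in the 4 populations, Dgkz and Spry1 are high in D and low in C with A1 and B1 apart from the others of their label, and Rasa2 is lower in B and C than in A and D.

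Among the RasGAPs, Rasa1 (Entrez 218397), the p120 protein with SH2 domains that bind phosphotyrosine, read 42.5, 31.0 and 31.5 RPKM in A1, A2 and A3, 28.0, 36.7 and 33.0 in B1, B2 and B3, 27.8, 24.2 and 25.8 in C1, C2 and C3, and 36.6, 36.9 and 36.1 in D1, D2 and D3. The D libraries were close together and all above the C libraries, which were the lowest 3 of the 12. The order was C (25.9 ± 1.79 RPKM), B (32.6 ± 4.38), A (35.0 ± 6.48) and D (36.5 ± 0.40). C and B did not overlap, by 27.8 in C1 against 28.0 in B1, and the later neighbours did.

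Rasa2 (Entrez 114713), a RasGAP with a PH domain that has been described as a checkpoint in T cells, had another pattern. It read 23.2, 22.3 and 22.8 RPKM in A1, A2 and A3, 20.01, 18.3 and 18.9 in B1, B2 and B3, 20.4, 19.3 and 17.0 in C1, C2 and C3, and 22.5, 21.01 and 21.9 in D1, D2 and D3. Every library labelled A or D was above every library labelled B or C, the populations sorted as GFP intermediate. How many of all genes split the libraries in that way was not counted. With the part that followed GC content and length of the transcript removed, Rasa2 differed by -0.06 in B minus A and 0.14 in D minus C (log2 scale). The means were 18.9 ± 1.76 RPKM in C, 19.1 ± 0.89 in B, 21.8 ± 0.75 in D and 22.8 ± 0.48 in A, and C overlapped B and D overlapped A. Unlike for Dgkz, A1 and B1 sat with the other libraries of their label.

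Rasal3 (Entrez 320484), a RasGAP found mainly in blood cells, was the most abundant of the 7 measured RasGAPs, at 47.3% of their summed RPKM (44.1% to 50.4%), with Rasa3 at 34.7%, Rasa1 at 8.04% and Rasa2 at 5.11%. It read 179, 189 and 179 RPKM in A1, A2 and A3, 210, 202 and 187 in B1, B2 and B3, 183, 205 and 194 in C1, C2 and C3, and 172, 193 and 208 in D1, D2 and D3. All 4 populations overlapped, with means of 182 ± 5.61 RPKM in A, 191 ± 18.2 in D, 194 ± 11.2 in C and 199.5 ± 12.0 in B.

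Spry1 (Entrez 24063), the Sprouty feedback inhibitor, was the least abundant member and varied most (mean 2.38 RPKM, rank 9015, coefficient of variation 84.8%). It read 4.61, 0.30 and 0.24 RPKM in A1, A2 and A3, 0.52, 4.59 and 3.16 in B1, B2 and B3, 0.59, 0.84 and 0.45 in C1, C2 and C3, and 3.96, 4.75 and 4.51 in D1, D2 and D3. The libraries fell into 2 sets with a gap between 0.84 and 3.16 RPKM, and A1 was in the high set and B1 in the low one. By the recovered reads, A3 held 4 reads of Spry1 (exact Poisson 95% interval 1.09 to 10.2), C2 15 (8.40 to 24.7), B3 64 (49.3 to 81.7) and D2 104 (84.98 to 126), intervals that cover counting error only. The means were 0.63 ± 0.20 RPKM in C, 1.72 ± 2.503 in A, 2.76 ± 2.06 in B and 4.41 ± 0.40 in D, and each neighbouring pair overlapped while D and C did not. Spry2, Spry3 and Spry4 were not analysed here.

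The libraries took the same sides for several members. The 6 libraries with the most Nr4a1 (A1, B2, B3, D1, D2 and D3, all at 57.7 RPKM or more) were also the 6 highest for Spry1, for Dgkz and for Rasa1. The step between the sixth and seventh library, as a ratio, was 3.78 for Spry1, 1.60 for Nr4a1 and 1.23 for Dgkz, but 1.05 for Rasa1, which has no clear gap. Rasa2, Dgka and Rasal3 did not order the libraries that way. This is a description of 12 libraries that share mice, and the sets were seen in the values and not given by the labels. How many of all genes split the libraries this way was not counted, so the split is not shown to be particular to these members.

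**Figure D2:**
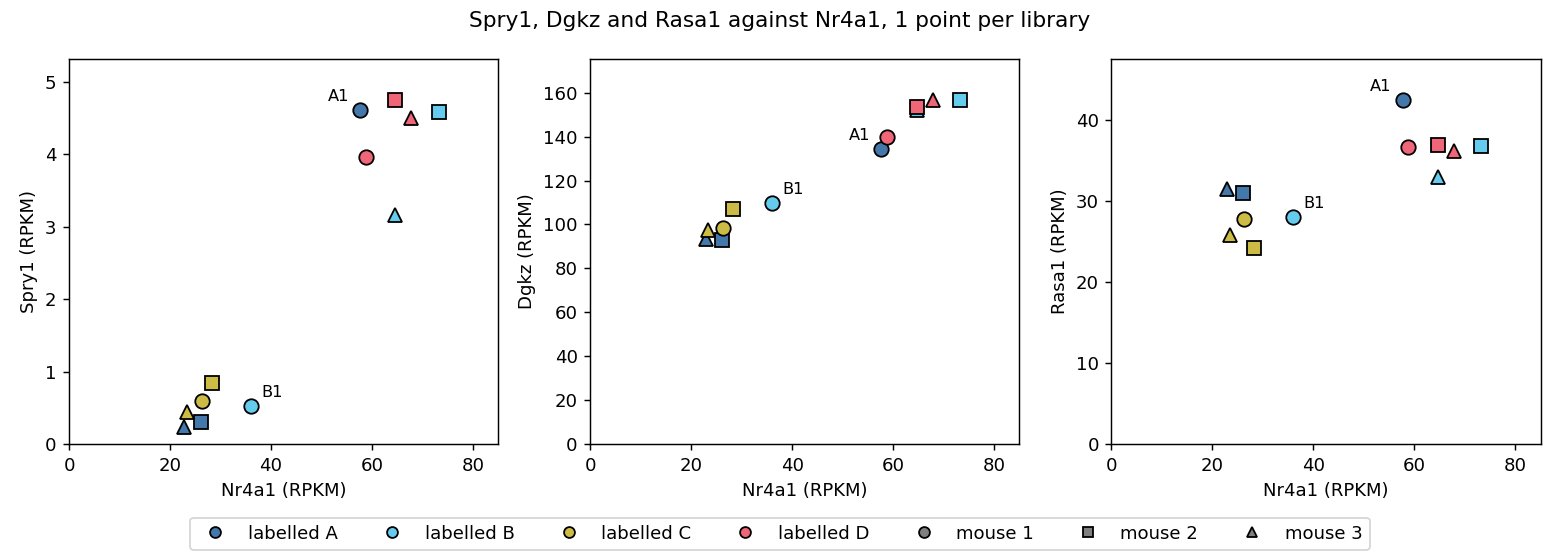
RPKM of Spry1, Dgkz and Rasa1 (vertical axis, linear) against RPKM of Nr4a1 (horizontal axis, linear) in the 12 libraries, coloured by labelled population, with A1 and B1 marked. In each panel the 6 libraries with Nr4a1 of 57.7 or more lie above the other 6. A1 is among the high and B1 among the low ones, and Rasa1 has no clear gap between the sets.

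The comparison of D with C asks about GFP high against GFP intermediate within cells labelled Ly6C negative. Ly6c1 was not held constant in it, being lower in D than in C in 3 of 3 mice with no overlap (-0.56 ± 0.09 on the log2 scale, limma adjusted p 0.0102 with D and C alone and 0.106 with 12 libraries). In D, Spry1 stood 2.13 ± 0.67 above C on the log2 scale (4.39-fold there, 7.04-fold as a ratio of mean RPKM), Dgkz 0.57 ± 0.15 (1.48-fold) and Rasa1 0.49 ± 0.12 (1.40-fold), each higher in 3 of 3 mice. Rasa2 differed by 0.20 ± 0.07 and was also higher in 3 of 3 mice, and Dgka and Rasal3 (-0.03 ± 0.07) differed by less than their SE. With all 12 libraries none of the 6 passed an adjusted p of 0.05, where 0.00998% of all genes were called. The limma adjusted p was 0.106 for Dgkz and for Rasa1, 0.136 for Spry1, 0.145 for Rasa2, 0.718 for Dgka and 0.870 for Rasal3, and limma-voom on the recovered reads also called 0 of the 6 (0.00998% of all genes). At an unadjusted p under 0.05 there were 4 members (18.1% of all genes), and the same 4 had D wholly above C (14.1% of all genes).

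With only the 6 libraries of D and C, 3 of the 6 members were called, all higher in D, where 4.8% of all genes were called and 3.35% were called higher. The limma adjusted p was 0.000135 for Spry1, 0.0011 for Dgkz and 0.00283 for Rasa1, and 0.206 for Rasa2. The differences are the same in both fits and the spread is not: the SE of Dgkz was 0.15 with 12 libraries and 0.06 with 6, the SDs of Dgkz being widest in A and B. Leaving out each of the 6 libraries in turn, C3 included, called 3 members each time, the same Spry1, Dgkz and Rasa1, where 4.18%, 2.67% and 6.5% of all genes were called without C1, C2 and C3 and 2.41%, 2.01% and 2.15% without D1, D2 and D3. Without A1 and B1 these 3 were called too, all higher in D (7.63% of all genes called, 5.05% called higher), and without A1, B1 and C3 there were 3 again (8.39%). Over all alternatives the adjusted p ran from 1.01e-05 to 0.299 for Spry1, from 7.30e-05 to 0.268 for Dgkz and from 0.000466 to 0.268 for Rasa1. The median difference of the 6 members was 0.35, between Rasa2 (0.20) and Rasa1 (0.49), against 0.01 over all genes tested. Dgka (-0.04) and Rasal3 (-0.03) were negative, and the members were chosen with earlier results of these data known.

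The comparison of B with A asks about GFP intermediate against GFP low within cells labelled Ly6C+. Here too Ly6c1 differed, lower in B than in A in 3 of 3 mice with no overlap (-0.55 ± 0.12, limma adjusted p 0.0452 with 12 libraries). Rasa2 was lower in B in 3 of 3 mice, by -0.25 ± 0.07 on the log2 scale, and it was the only member whose groups did not overlap (15.8% of all genes had B wholly below A). None of the 6 passed with 12 libraries, where 2.23% of all genes (223) were called, and Rasa2 had a limma adjusted p of 0.0646. There were 2 members with an unadjusted p under 0.05, Dgkz and Rasa2 (23.1% of all genes), and limma-voom called 1, Rasa2 (adjusted p 0.0491, where 2.99% of all genes were called). With the 6 libraries of B and A alone Rasa2 passed (adjusted p 0.0444, where 3.79% of all genes were called and 3.18% were called lower), and over the alternatives its adjusted p ran from 0.0140 to 0.746. The highest of these came from taking out the part of each library's values that followed GC content and length of the transcript, which left -0.06. The B minus A difference of all genes went with GC content (r = 0.565 across 9846 genes, which are not independent), and 1022 genes within 2 points of the 39.8% GC of Rasa2 had a median of -0.20 (5th to 95th percentile -0.45 to 0.07), so the value of Rasa2 lies inside the range of genes of its GC content. Dgkz differed by 0.39 ± 0.15 (limma adjusted p 0.144). With GC and length effects removed it differed by 0.23 ± 0.13 (limma adjusted p 0.529), and 0 members had an unadjusted p under 0.05. Spry1 differed by 0.88 ± 0.67 (limma adjusted p 0.451). In mouse 1 both Dgkz and Spry1 were lower in B than in A, in mice 2 and 3 higher. Without A1 and B1 they were 0.72 ± 0.06 (limma adjusted p 7.58e-05) and 2.48 ± 0.19 (3.21e-05), 2 members called higher where 10.9% of all genes were called and 6.66% were called higher. Without A1, B1 and C3 there were 3 (16.3% of all genes), and 3 in the fit of B and A alone without A1 and B1 (19%), with Rasa2 as the third in both.

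**Figure D3:**
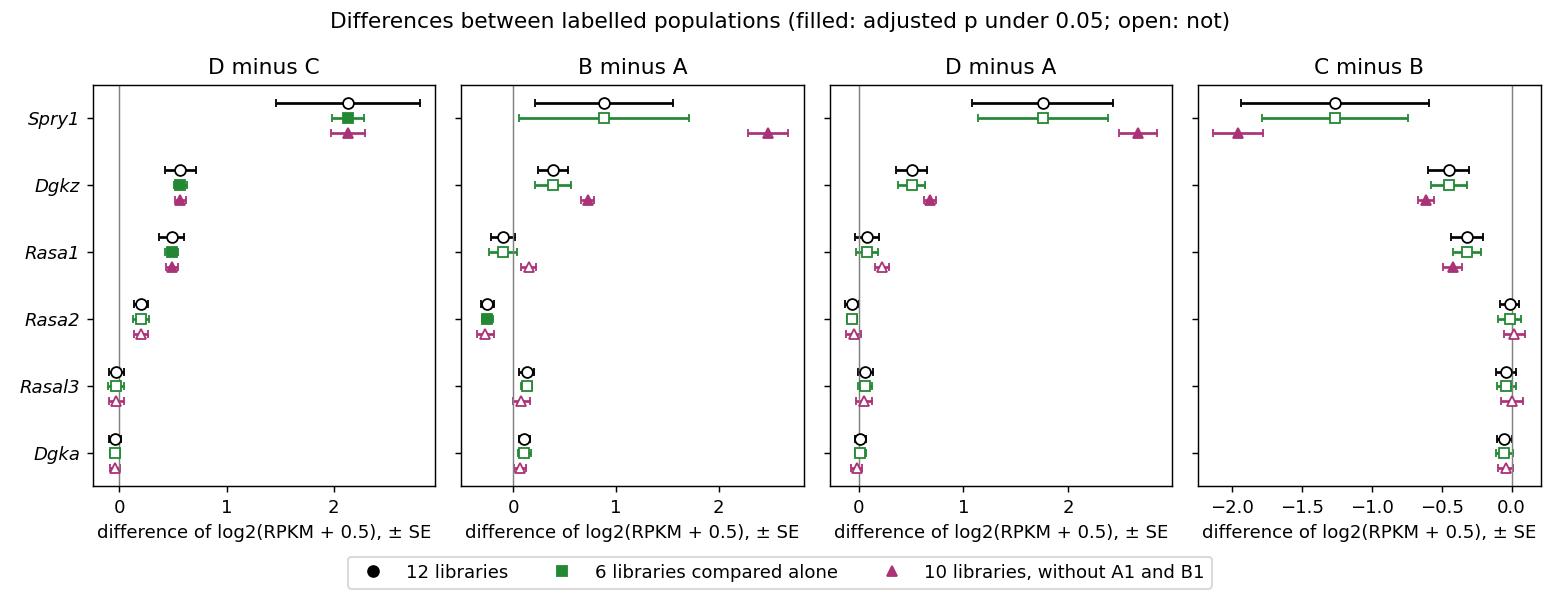
Log2 difference of each member (horizontal axis, log2(RPKM + 0.5), bars are SE) in D minus C, B minus A, D minus A and C minus B, from the limma fits of all 12 libraries, of the 6 libraries compared and of the 10 left without A1 and B1. For Dgkz, Spry1 and Rasa1 the D minus C values are the same in the 3 fits with shorter bars in the last 2, and their B minus A values shift when A1 and B1 are left out.

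D against A spans both sorting axes, and shares the D libraries with the first comparison and the A libraries with the second. Dgkz was 0.51 ± 0.15 higher in D, wholly above A (as were 14.1% of all genes), and Spry1 1.76 ± 0.67 higher, at limma adjusted p of 0.154 and 0.202. None of the 6 members was called with 12 libraries, where 0.00998% of all genes were, or with the 6 alone (0.0299%). With 12 libraries 2 had an unadjusted p under 0.05 (19% of all genes). Without A1 and B1, Dgkz (0.68 ± 0.06, limma adjusted p 5.51e-05) and Spry1 (2.67 ± 0.18, 9.43e-06) were called, where 8.84% of all genes were called and 6.08% were called higher. There were 3 called members without A1, B1 and C3 (13.5% of all genes) and 3 in the fit of D and A alone without A1 (13.6%), Rasa1 being the third. Rasa1 (0.08), Rasal3 (0.06), Dgka (0.02) and Rasa2 (-0.06) differed little with all libraries.

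C against B compares the Ly6C gates at labelled GFP intermediate. Dgkz was lower in C by -0.45 ± 0.15 and Rasa1 by -0.32 ± 0.12, both with C wholly below B (8.83% of all genes), and Spry1 by -1.26 ± 0.67. The limma adjusted p was 0.287, 0.290 and 0.431, and none of the 6 was called with 12 libraries (0.00998% of all genes) or with the 6 alone (0% of all genes). With 12 libraries 2 members had an unadjusted p under 0.05 (13.4% of all genes). Without A1 and B1 all 3 were called lower in C, where 7.74% of all genes were called and 4.98% were called lower, at -0.61 ± 0.06 for Dgkz, -0.42 ± 0.07 for Rasa1 and -1.95 ± 0.18 for Spry1 (limma adjusted p 0.000125, 0.00332 and 8.62e-05). The count was 3 also without A1, B1 and C3 (8.71% of all genes) and in the fit of C and B alone without B1 (2.88%). As both populations were labelled GFP intermediate while Nr4a1 differed between them, the gate and the Nr4a1 level cannot be told apart here. The F test over the 4 populations called none of the 6 members (0.00998% of all genes), with limma adjusted p of 0.130 for Dgkz and Rasa2, 0.132 for Rasa1 and 0.195 for Spry1, and without A1 and B1 it called 3 (9.63%), without A1, B1 and C3 4 (13.1%).

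Markers of other T cell types moved with Spry1, Dgkz and Rasa1. The 6 regulatory T cell markers, all measured and none listed at 0, summed to 109 to 128 RPKM in D and 47.4 to 53.6 in C, 116 in A1 against 43.6 and 50.2 in the other A libraries, and 57.6 in B1 against 112 and 115 in the other B libraries. Foxp3 itself was 3.67 ± 0.38 RPKM in D and 1.36 ± 0.09 in C, although the cells were sorted negative for its reporter. The 6 T follicular helper markers, also all measured, summed to 76.5 to 85.7 RPKM in D and 29.4 to 33.7 in C, with 79.9 in A1 and 34.5 in B1. All 6 genes of each list were called higher in D in the fit of D and C alone, where 3.35% of all genes were called higher. In that fit the NK cell list (2 of 5 measured, at most 22.7 in D and 28.6 to 31.7 in C) had 1 called lower. So was Cd8b1, the 1 measured gene of 2 on the CD8 T cell list (14.7 ± 1.69 RPKM in C, 10.7 ± 0.51 in D, limma adjusted p 0.0354). With 12 libraries limma called 0 genes of any of these lists in D minus C (0.00998% of all genes). The part of these cells in the results was not tested, and in bulk RNA a change in the share of a cell type and a change of RNA per cell cannot be told apart. The strand used in counting is not given, and exons of another gene on the opposite strand cover 24.4% of the exonic bases of Spry1, 12.97% of Rasal3 and 3.54% of Dgkz in GENCODE M21, so those values may hold reads of the other strand.

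The rest of the pathway was read from 7 lists of 87 genes, 69 of them tested, in the fit of D and C alone: 11 were called higher in D and 0 lower, where 4.8% of all genes were called. Against this stands the fit of 12 libraries, in which limma called 0 of the 69 (0.00998% of all genes) and 26 had an unadjusted p under 0.05. Of 6 diacylglycerol kinases only Dgkz was called, and Dgkd (105 ± 2.12 RPKM in C, 101 ± 1.59 in D) was not. Of 10 RasGAPs and adaptors Rasa1 and Rasal1 were called. Rasal1, a RasGAP that calcium recruits to membranes, was 0.39 ± 0.07 higher in D on the log2 scale (limma adjusted p 0.014). Rasal1 was also the 1 pathway gene called in B against A with 12 libraries, at 0.49 ± 0.10 (limma adjusted p 0.0455), and 0.0669 with the 6 alone. Over 29 settings its limma adjusted p ran from 0.000353 to 0.218 and passed in 17. The highest came with GC and length effects removed, which left a difference of 0.35. The 223 genes called in B against A with 12 libraries became 2 with the mouse as a block and 0 to 461 with 1 library left out. Rasal1 read 13.3, 12.4 and 12.9 RPKM in A1, A2 and A3 and 14.9, 19.2 and 21.4 in B1, B2 and B3, so that A1 was not high for it. Of the 3 Sprouty and Spred inhibitors Spry1 was called, and Spred1, which helps neurofibromin restrain Ras, read 1.35 ± 0.12 RPKM in C and 2.08 ± 0.21 in D (limma adjusted p 0.054).

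Genes that carry the signal forward, and the targets and phosphatases of ERK, were read from the same fit. With 12 libraries limma called 0 of 12 Ras activators and adaptors, and 6 had an unadjusted p under 0.05 (18.1% of all genes). In the fit of D and C alone it also called 0, and Rasgrp4, an exchange factor for Ras, read 2.73 ± 0.16 RPKM in C and 3.53 ± 0.22 in D (limma adjusted p 0.115). Of 8 diacylglycerol-binding kinases, the protein kinases C eta and alpha were higher in D, Prkch by 0.44 ± 0.06 on the log2 scale and Prkca by 0.39 ± 0.06 (limma adjusted p 0.00545 and 0.00953). Of the 15 genes of the Ras, Raf, MEK and ERK core 1 was called, the scaffold Ksr1, at 0.41 ± 0.08 (limma adjusted p 0.0208). Of 16 ERK-responsive targets and phosphatases 4 were called, all higher in D: the transcription factors Egr3 (0.55 ± 0.07) and Egr2 (0.90 ± 0.12) and the ERK phosphatases Dusp6 (0.43 ± 0.06) and Dusp4 (1.45 ± 0.25), with limma adjusted p of 0.00284, 0.00423, 0.00608 and 0.0141. Dusp4 read 0.27, 0.30 and 1.03 RPKM in C1, C2 and C3 and 2.23, 2.21 and 2.09 in D1, D2 and D3. The median D minus C difference was 0.20 for the ERK targets, 0.48 for the 3 Sprouty and Spred genes, 0.07 for RasGAPs and adaptors, 0.05 for diacylglycerol-binding kinases, 0.04 for activators, 0.02 for diacylglycerol kinases and 0.02 for the core, against 0.01 over all genes. The lists were chosen with results of these data known and are no independent evidence of direction.

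**Figure D4:**
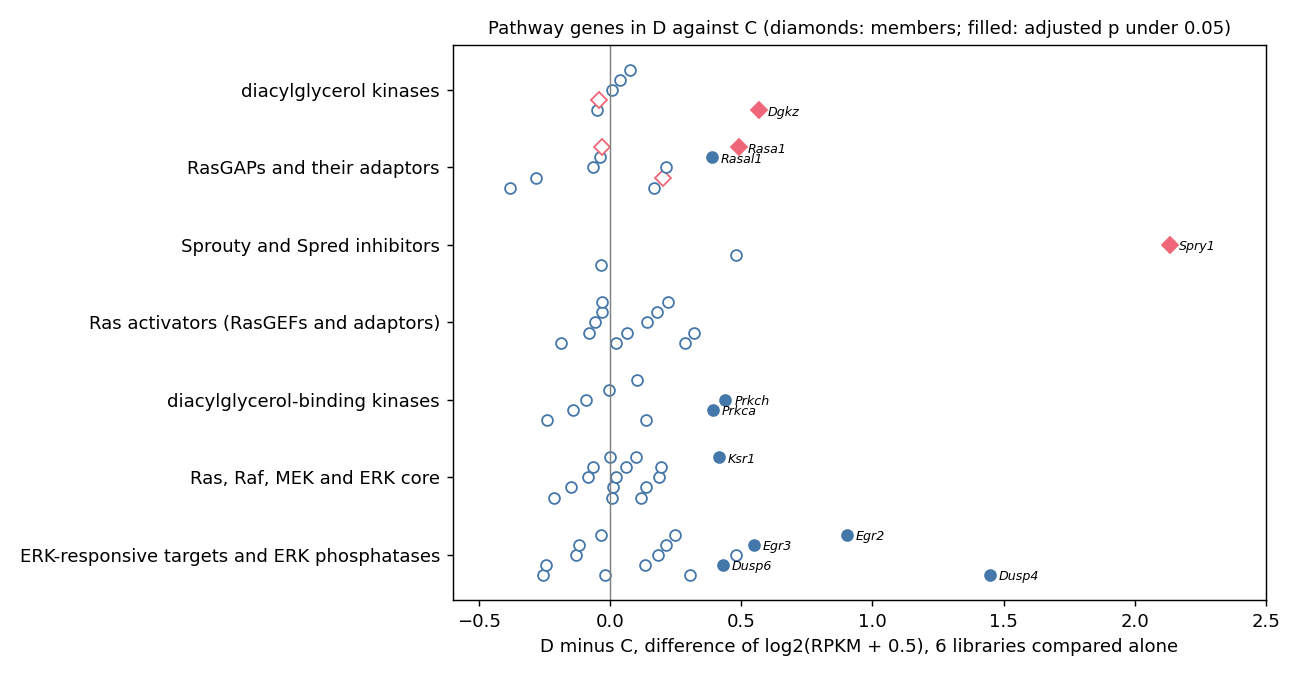
Log2 difference D minus C (horizontal axis, log2(RPKM + 0.5)) of the 69 tested pathway genes by list, from limma on the 6 libraries of D and C, with called genes filled and named and the members marked. The 11 called genes, from Rasal1 and Prkca at 0.39 to Spry1 at 2.13, are all on the side of D, and the lists other than that of the 3 Sprouty and Spred genes have medians of 0.02 to 0.20.

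The genes whose level followed each member most closely over the 12 libraries were found by Pearson's r of log2(RPKM + 0.5). For Dgkz they were Tbc1d2b (r = 0.991, Spearman's rho 0.972), Ephx1 (0.987, 0.930) and Nr4a1 itself (0.987, 0.979). For Spry1 they were Lad1 (0.988, 0.881), Slc29a1 (0.987, 0.944) and Il2rb (0.987, 0.867), and as the libraries fall into 2 sets for Spry1, that r reads mostly the step between the sets. For Rasa1 they were Tank (r = 0.960), Rb1 (0.951) and Cnih4 (0.950), for Rasa2 Casp8ap2 (0.953), Zfp874b (0.942) and Stk17b (0.941), for Dgka Ccar2 (0.949), Leng8 (0.937) and Dnm2 (0.893), and for Rasal3 Arhgap4 (0.955), Ccdc88b (0.933) and Akna (0.922). The points share mice and populations, and the 3 nearest genes differ from member to member.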

How the data were processed

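Per the labels' protocols, sorted cells went into lysis buffer and RNA, made with the Quick-RNA MicroPrep kit, was the input of the SMART-seq v4 and NexteraXT kits. The submitters' processing notes name STAR, mm9 and mm10. For the counting tool, the annotation and the use of strand, nothing is given in the sources used here. The authors deposited RPKM values, per the file headers, for 10073 genes, 3 without a symbol. Depth came from the size of 1 read in these values, since RPKM times length and depth was whole to 0.1 read in 100% of those examined.

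The test was limma (3.58.1, R 4.3.3) with its trend option, applied to log2(RPKM + 0.5) of the 10021 genes whose mean reached 0.5 RPKM, in 12 libraries without a block. P-values were Benjamini-Hochberg adjusted over all genes within a comparison, with 0.05 as threshold. A fold change on that scale understates the change of low genes. Fits of the 6 libraries compared were an alternative. The tests were checked on simulated data. Other tools were Python 3.11.15 (numpy 2.4.6; pandas 2.3.3; scipy 1.17.1; matplotlib 3.10.9) and statmod 1.5.0.

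The members and lists were chosen with earlier results of these data known. Named were all members, the 3 genes most like each, sort checks (Nr4a1, Ly6c1, Cd4, Foxp3) and, from each list, at most 3 called genes or, with none called, up to 2 by value, given for D against C and, where called, for B against A. A gene due under this rule is not reported here. Dusp4, Rasa3 and the sets of libraries were named after their values were seen. Libraries of 1 mouse number are stated to be of 1 animal, and their deviations from population means had a mean correlation of -0.072 (-0.613 to 0.379, 1 of 18 pairs over 0.1; other pairs 0.032). Alternatives were other pseudocounts, filters, scalings, moderation, mouse blocks, limma-voom and left-out libraries. Added after seeing the data were the removal of GC and length effects, and fits of the compared libraries alone with A1 and B1, or each library of D and C, left out.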

Additional observations from a re-analysis of the deposited data

Results flagged for a closer look

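Rasa2 differed in opposite directions in the 2 steps of labelled GFP. It was higher in D than in C in 3 of 3 mice and lower in B than in A in 3 of 3 mice, and the D minus C difference exceeded the B minus A difference by 0.45 ± 0.09 on the log2(RPKM + 0.5) scale. The limma adjusted p of this difference of differences was 0.168 (unadjusted 0.000382), so it did not pass the threshold, and 0% of all genes passed that test. Without C1 it passed, where 2.6% of all genes did. With GC and length effects removed the difference was 0.21 ± 0.09 (limma adjusted p 0.678).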

How the results depend on the processing

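Of the counts of members called under an alternative, 142 were as with all 12 libraries and 32 moved. Without A1 and B1, 3 members were called in D minus C (7.63% of all genes), 2 in B minus A (10.9%) and 2 in D minus A (8.84%). In C minus B there were 3 (7.74%) and in the F test 3 (9.63%). Without A1, B1 and C3 the counts were 3 (8.39%), 3 (16.3%), 3 (13.5%), 3 (8.71%) and 4 (13.1%). The 6 libraries compared alone gave 3 in D minus C (4.8%) and 1 in B minus A (3.79%). Leaving A1 and B1 out of such fits gave 3 in B minus A (19%), 3 in D minus A (13.6%) and 3 in C minus B (2.88%). Limma-voom gave 1 in B minus A (2.99%). Leaving out 1 library at a time gave 0 to 3 in D minus C (3 without A1, where 2.87% of all genes were called, and 2 without B1, 3.97%). Each library left out of the 6 of D and C compared alone gave 3 (2.01% to 6.5%). In B minus A there were 0 to 1 (1 without A1, 2.37%, and 1 without C1 or C3, 4.6% each). In D minus A there were 0 to 2 (2 without A1, 3.61%) and in C minus B 0 to 1 (1 without B1, 3.85%). The F test gave 0 to 2 (2 without A1, 1.54%, and 1 without B1, 4%) and the difference of the steps 0 to 1 (Rasa2 without C1, 2.6%). The replicate block for the mouse number, fixed or random, called 0 members in every comparison and so changed no call.

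The difference of the steps turned for Spry1, from 1.252 to -0.35 without A1 and B1 and -0.47 without C3 as well, and for Dgkz, from 0.18 to -0.16 and -0.18. In the comparisons of 2 populations these signs turned. Dgka in D minus C was 0.066 with quantile normalization. With GC and length effects removed, Rasa1 in B minus A was 0.040, Rasal3 in B minus A -0.0015, Dgka in D minus A -0.044, Rasa2 in D minus A 0.054, Rasal3 in D minus A -0.044 and Rasal3 in C minus B 0.019. Without A1 and B1, in both kinds of fit, Rasa1 in B minus A was 0.15, Dgka in D minus A -0.019, Rasa2 in C minus B 0.020 and Rasal3 in C minus B 0.00099. Without C3 as well, Rasa1 in B minus A was 0.15, Dgka in D minus A -0.019 and Rasa2 in C minus B 0.094. Leaving out 1 library at a time, Rasal3 in D minus C ran from -0.094 to 0.044 (0.011 without C2 among them), Rasa1 in B minus A from -0.18 to 0.050, in D minus A Dgka from -0.019 to 0.048, Rasa1 from -0.00088 to 0.22 and Rasal3 from -0.000898 to 0.14, and in C minus B Rasa2 from -0.070 to 0.060 and Rasal3 from -0.085 to 0.0040. The cause was not tested. A filter of 5 RPKM removed Spry1 from the test. Depth limits Spry1, with 4 to 15 reads in its low libraries.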
